A study of Mus musculus with 24 samples.

Results

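The 42 genes described here encode proteins of the junctions that hold neighbouring cells together, and they were taken by name from a fixed list of tight, adherens, gap and desmosome junction genes. They were 42 of the 32040 genes listed in the deposited tables. Among them were 22 tight junction genes (14 claudins and 8 others), 11 adherens junction genes (7 cadherins, 3 nectins and Epcam), 4 connexin genes of the gap junction and 5 desmosome genes. The rule used gene names and no measured values, although the list was drawn up with earlier results of these data in view. All 42 were found and all 42 were among the 16190 genes kept by the filter on low counts, which looked at all groups together.

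Tight junctions seal the space between cells: claudins form the strands, and occludin, the junctional adhesion molecules and cytoplasmic scaffolds such as ZO-1 and cingulin complete them. Adherens junctions are built from cadherins and nectins, which reach through catenins and afadin to actin. Desmosomes tie cadherin-type adhesion proteins to intermediate filaments through plakoglobin, plakophilins and desmoplakin, and connexins form channels that let small molecules pass between cells. In the testis, Sertoli cells enclose the germ cells in cords and later form a barrier in which Cldn11 is a known component, while pre-granulosa cells surround germ cells in the ovary. Both cell types arise from supporting cell progenitors of the early gonad, which come from the coelomic epithelium.

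Polyadenylated RNA was measured in 24 libraries of cells sorted by fluorescence from mouse fetal gonads, with about 40000 cells in each. Female (XX) cells were pre-granulosa cells of the Tg(Enh8-mCherry) line, sorted at 4 stages named by embryonic day (E11.5 as the earliest, E12.5 next, E13.5 after it, and E15.5 as the latest), and male (XY) cells were Sertoli cells of the SOX9-IRES-GFP line at the same 4 stages, with 3 libraries in each of the 8 groups. Sex, mouse line and fluorophore changed together, so every XX minus XY difference is one between the 2 kinds of sorted library. Total counts ran from 11275251 to 37256881 per library. All groups carried a reporter, and the labels do not say which gene the Enh8 element belongs to or what else of the genetic background was shared. One field of XX E13.5 replicate 1 gives E12.5 while its title and column name give E13.5, and it was kept at E13.5. Nothing in the labels says that replicates came from separate litters or pools, so the spread between libraries may be technical. The p-values rest on that spread estimated over all 8 groups together, not on the libraries of a single comparison. In such bulk libraries fewer cells of a type and less RNA per cell cannot be told apart.

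The sorted cells carried the markers of their labels. The summed level of 6 Sertoli genes (among them Amh, Dhh and Sox9, whose reporter was used for the sort) was 631.5 to 6193 TPM (transcripts scaled to gene length and to the library total) in XY libraries and 18.67 to 161.9 in XX libraries, and the sum of 6 pre-granulosa genes (among them Foxl2 and Fst) was 188.5 to 929.5 in XX and 1.32 to 33.86 in XY. The XX E11.5 libraries also held RNA of other cells: 6 macrophage genes summed to 118.1 to 304.6 TPM there and to at most 1.43 in XY E11.5, and 7 erythroid genes summed to 8997 to 55960 TPM against 24.9 to 66.15. Their 7 interstitial genes varied from 118.4 to 755 TPM, highest in replicate 3. Later XX libraries held less of it but still more than XY: the macrophage genes summed to 22.65 to 52.62 TPM in XX from E12.5 to E15.5 and to at most 0.61 in XY, and the erythroid genes to 2224 to 5110 TPM at E12.5, 1745 to 1964 at E13.5 and 766.5 to 1024 at E15.5 in XX, against at most 97.97 in XY at E12.5 and E13.5 and 389.7 to 627.1 at E15.5. Differences between the sexes carry this mixture at every stage, and its part in them was not tested.

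XX E11.5 replicate 1 stood apart for the epithelial members of the list. There, 8 of the 42 genes (19.0%) were at 1 TPM or more and at least 5-fold above both other libraries of the group, against 106 of all 16190 genes tested (0.655%). In none of the other 23 libraries did any of the 42 genes meet this rule. The 8 genes were the barrier claudins Cldn3 and Cldn4, the epithelial claudins Cldn6, Cldn7 and Cldn9, occludin (Ocln), E-cadherin (Cdh1) and the epithelial adhesion molecule Epcam. Cldn4 was at 121.17, 2.68 and 2.48 TPM in replicates 1, 2 and 3, and Epcam at 73, 6.62 and 5.45 TPM. Cldn6 was at 51.14, 0.19 and 2.86 TPM and Cdh1 at 16.37, 0 and 0.8 TPM. In these genes replicate 1 was 8.16 to 45.2 times the higher of the other 2 libraries. All 8 were lower in replicates 2 and 3 than in each of the 3 XY E11.5 libraries. Leaving out replicate 1 turned the sign of the E11.5 sex difference for 6 of them (Cldn3, Cldn4, Cldn7, Ocln, Cdh1 and Epcam), while for Cldn6 and Cldn9 the difference was negative with and without it. Their summed level was 328.03, 12.77 and 16.52 TPM in the XX E11.5 libraries, 69.42 to 79.41 in XY E11.5, 13.56 to 17.05 in all 12 libraries of E12.5 and E13.5, and 30.82 to 40.75 at E15.5.

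**Figure D1:**
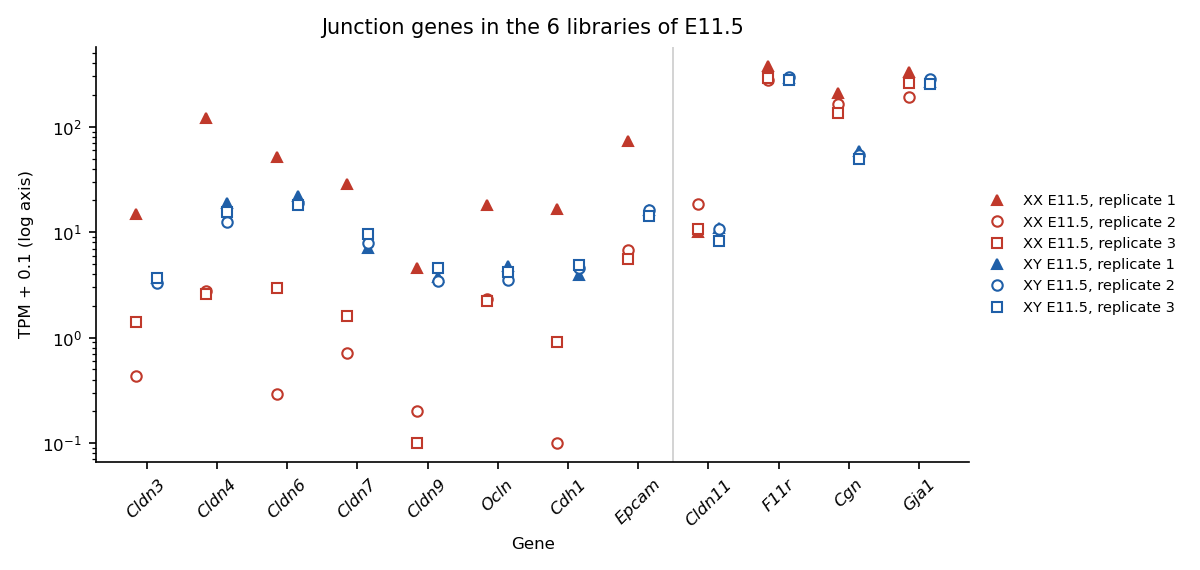
Level of 12 junction genes in the 6 libraries of E11.5, as TPM + 0.1 on a log axis, with a symbol per replicate (filled for replicate 1) and colours for XX and XY. For the 8 genes left of the line, XX replicate 1 lies far above XX replicates 2 and 3, which lie below all XY libraries. Cldn11, F11r, Cgn and Gja1, to the right, show no such gap.

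Other epithelial genes of the accompanying lists were also high in that library. The epithelial transcription factor gene Grhl2 was at 4.33, 0.02 and 0.05 TPM in the XX E11.5 libraries and at 0.9 to 1.07 in XY E11.5, and Esrp1, an epithelial splicing regulator, was at 9.16, 0.09 and 0.22 TPM. Crb3, a polarity protein gene, was at 22.99, 2.22 and 1.71 TPM, and Gjb1, a connexin gene, at 6.44, 0.04 and 0 TPM. The 6 mesonephric genes summed to 241.41, 211.57 and 254.24 TPM. The summed level of 8 coelomic and surface epithelium genes was not raised in replicate 1 (269.45 TPM, against 606.25 and 248.63 in replicates 2 and 3). The part of another cell type in this library was not tested. The count of called genes at E11.5 is given with and without it. So are the E11.5 sex differences of the 8 junction genes high there and of Tjp3. Other E11.5 differences are given with it only.

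Promoters of 5 of these genes are shown because their levels carry the main patterns: Cldn11 and Gjb2 are a claudin and a connexin with wide differences between the sexes, and Cldn4, Cldn6 and Epcam are 3 of the genes high in that library. The promoter table used here, taken from RefSeq (GRCm38.p6, the same assembly as mm10), gave 35 promoters for 27 of the 42 genes. Each sequence is the 250 bases before the transcription start on the gene's strand, 5′ to 3′, at chr3:31149670-31149919 (Cldn11, plus strand), chr14:57104703-57104952 (Gjb2, minus), chr5:134946935-134947184 (Cldn4, minus), chr17:23679115-23679364 (Cldn6, plus) and chr17:87635729-87635978 (Epcam, plus). Capitals mark the E-box CACCTG or, read on the other strand, CAGGTG, the letters bound by the SNAI and ZEB repressors that are known to act on Cdh1.
Cldn11: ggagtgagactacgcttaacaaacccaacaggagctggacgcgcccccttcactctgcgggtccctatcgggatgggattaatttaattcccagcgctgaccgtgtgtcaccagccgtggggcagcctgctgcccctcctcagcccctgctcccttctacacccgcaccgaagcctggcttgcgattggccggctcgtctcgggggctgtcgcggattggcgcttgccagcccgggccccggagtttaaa
Gjb2: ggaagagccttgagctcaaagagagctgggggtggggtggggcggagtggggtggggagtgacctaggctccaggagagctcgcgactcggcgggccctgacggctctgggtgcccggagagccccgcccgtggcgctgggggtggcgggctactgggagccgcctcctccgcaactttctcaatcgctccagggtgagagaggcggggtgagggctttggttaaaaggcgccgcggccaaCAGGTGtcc
Cldn4: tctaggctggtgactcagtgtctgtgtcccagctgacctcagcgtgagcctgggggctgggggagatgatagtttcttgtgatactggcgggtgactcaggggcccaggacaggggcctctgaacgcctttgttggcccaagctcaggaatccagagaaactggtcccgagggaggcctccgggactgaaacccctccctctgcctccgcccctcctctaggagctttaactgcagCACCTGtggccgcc
Cldn6: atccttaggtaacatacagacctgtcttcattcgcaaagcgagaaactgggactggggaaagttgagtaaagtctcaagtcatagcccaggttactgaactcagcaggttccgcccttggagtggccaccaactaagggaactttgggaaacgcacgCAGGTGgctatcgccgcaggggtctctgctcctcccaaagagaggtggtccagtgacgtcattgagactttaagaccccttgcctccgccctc
Epcam: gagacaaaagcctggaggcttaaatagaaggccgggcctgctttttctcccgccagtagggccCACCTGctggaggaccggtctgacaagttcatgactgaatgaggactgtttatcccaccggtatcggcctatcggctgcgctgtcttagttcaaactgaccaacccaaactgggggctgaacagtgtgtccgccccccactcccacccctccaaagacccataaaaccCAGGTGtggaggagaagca
The E-box lay in 10 of the 35 promoters (28.6%) and in 17.2% of all 32851 promoters of the table over the same 250 bases. Of the 8 genes high in XX E11.5 replicate 1, 6 had a promoter in the table and 5 of these held the E-box (Cldn4, Cldn6, Cldn7, Ocln and Epcam), as did 4 of 21 others (F11r, Nectin2, Tjp3 and Gjb2). Cldn7 and Ocln held it in only some of their promoters, and Cdh1 and Cldn9 had no promoter in the table. The 8 genes were picked by their values in 1 library, so this split is a description only, and a part of these repressors was not tested. The Cldn11 promoter held none of the 6 motifs searched. GGGCGG, the GC box, lay in 27 of the 35 promoters (77.1%) and 32.7% of all. The GATA-type motif, searched as AGATAA, lay in 3 of 35 (8.57%, against 9.99% of all), and AACNGGTT (GRHL-type, any letter at N) in 2 of 35 (5.71%, against 1.79%). ACAATG (SOX-type, 10.7% of all) and AAGGTCA (NR5A1-type, 4.08% of all) lay in 0 of 35. All motifs were searched on both strands and none contains another. A match is a description of letters, not a binding site.

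Across the 42 genes, the share that differed between the sexes lay near that of all genes, and the differences were larger in size. Calls were made by edgeR's quasi-likelihood test, with Benjamini-Hochberg adjustment over the 16190 genes and a threshold of 0.05, and differences are log2 XX minus XY, positive where XX is higher. At E11.5, 15 of the 42 genes were called, 6 higher in XX and 9 higher in XY, where 42% of all genes were called (21.4% higher in XX, 20.6% higher in XY). The count was 26 without XX E11.5 replicate 1, a fit whose share of all genes is not given here. When the 6 libraries of E11.5 alone were fitted, the count was 10, where 2661 of all genes were called (6803 with all libraries). With all libraries, at E12.5 it was 27 (11 higher in XX and 16 in XY) on a background of 62.1% of all genes (30.5% and 31.5%). At E13.5 it was 28 (10 and 18), on 66.1% (32.8% and 33.3%), and at E15.5 it was 26 (10 and 16), on 69.4% (34.9% and 34.4%). These shares of the list, 35.7%, 64.3%, 66.7% and 61.9%, lay near the shares of all genes. The size of the differences was larger than over all genes: the median absolute log2 difference was 0.634, 1.51, 1.46 and 1.63 over the 42 genes at the 4 stages and 0.414, 0.651, 0.774 and 0.883 over all genes tested. This larger size is a description only, since the list was drawn up with earlier results of these data in view. The medians also take in genes near the floor, such as Cldn10 and Cldn15, at or under 3 counts in every XY library from E12.5. The median signed difference of the list was 0.0877, -0.206, -0.503 and -0.394, and that of all genes lay between -0.00511 and 0.0456.

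By junction type, 14 of 22 tight junction genes were called at E15.5 (5 higher in XX and 9 in XY), 6 of 11 adherens junction genes (3 and 3), 3 of 4 connexins (1 and 2) and 3 of 5 desmosome genes (1 and 2). A single gene, Cgn, was higher in XX at all 4 stages, where 8.49% of all genes were. Cldn12, Cdh3 and Gjb2 were higher in XY at all 4, where 9.39% of all genes were. Another 10 genes were called in opposite directions at different stages (13.9% of all genes were): Ocln, Tjp1, F11r, Cdh5, Cdh6, Cdh16, Nectin1, Nectin2, Pkp2 and Jup. Cldn3, Cldn4, Cldn5, Cldn7, Cldn19, Cdh1 and Epcam were called at no stage with all libraries in the fit. The test for a sex difference that varies with stage called 32 of the 42 genes, on a background of 70.1%.

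**Figure D2:**
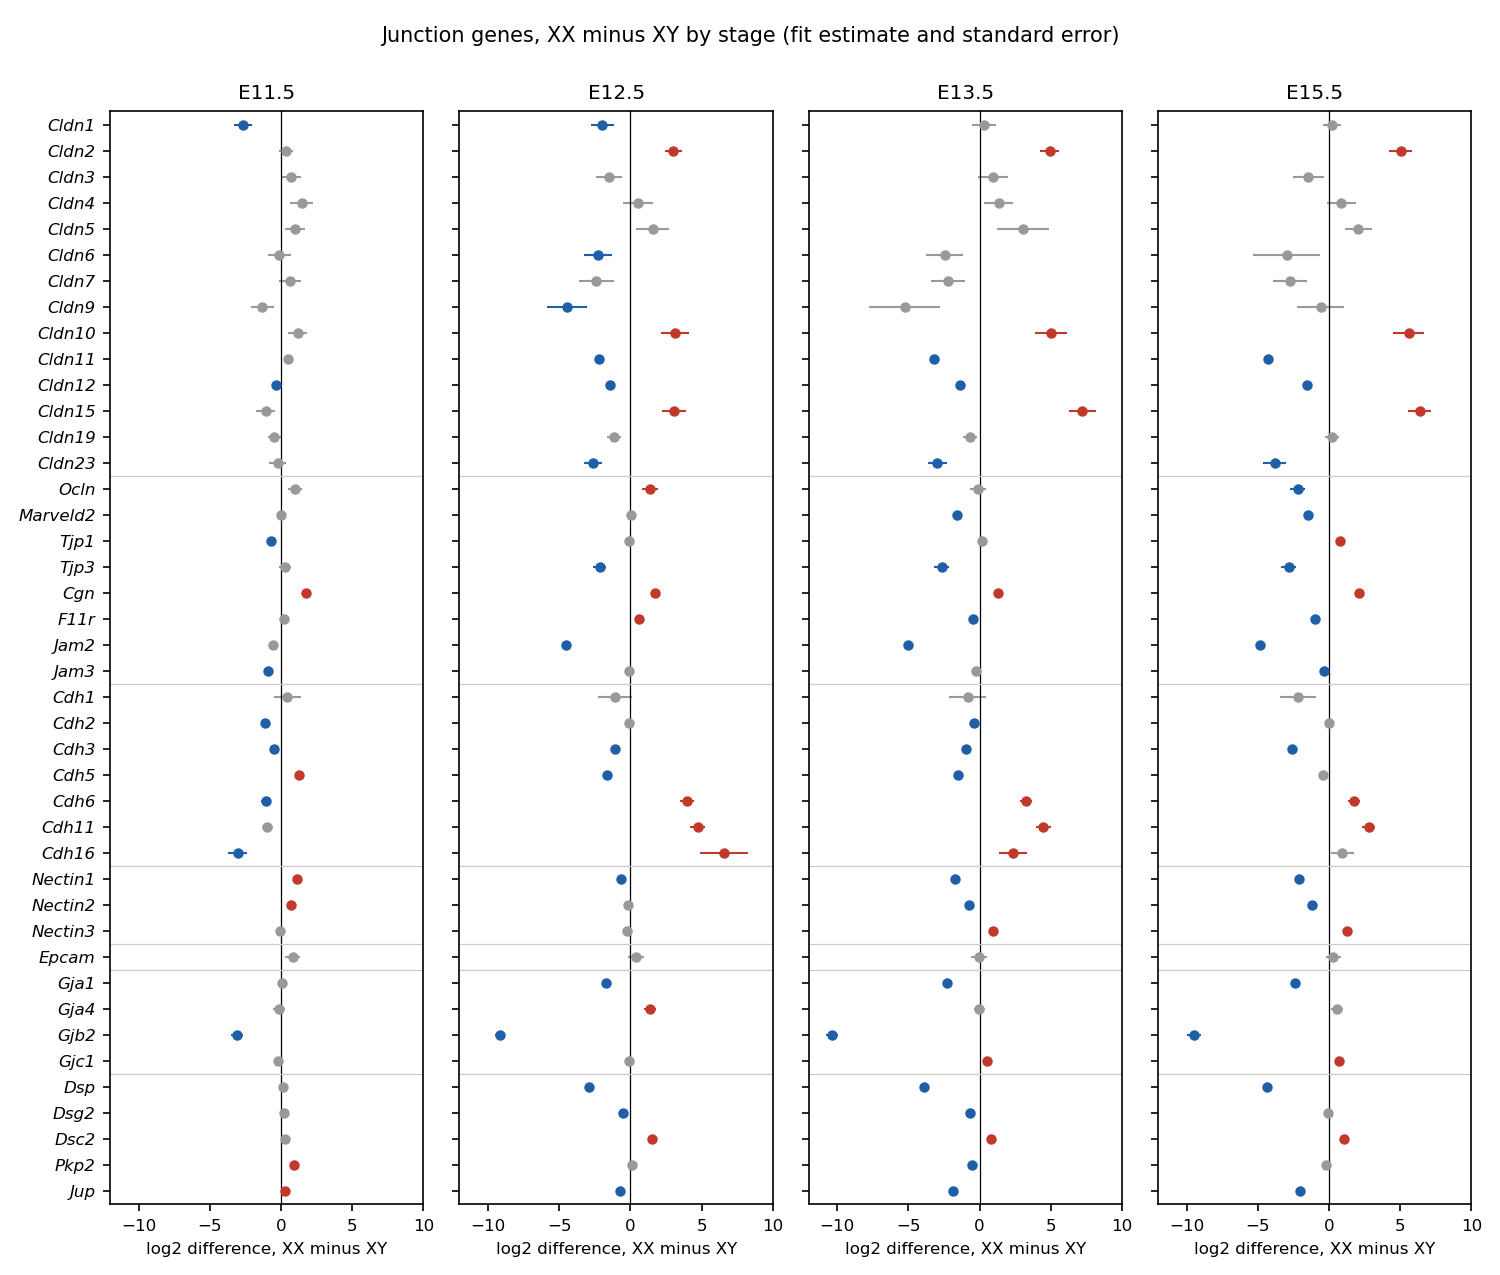
Log2 difference XX minus XY of each of the 42 genes at the 4 stages (points for the fitted value and bars for the standard error), with called genes coloured by the higher sex and the others grey. Genes of each junction type hold points on both sides of 0 from E12.5 on, and Gjb2 reaches -10.35 at E13.5.

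Among the claudins, Cldn11 came to make up most of the claudin RNA in XY cells and faded in XX cells. The summed level of the 14 claudins was 78.5 TPM in XY at E11.5 and 117.5, 163.4 and 84.9 at the later stages in turn, and Cldn11 held 74.5%, 84.2% and 73.6% of the last 3 sums. In XX the sum was 35.5 TPM at E12.5 and then 29.6 and 17.6, and the share of Cldn11 was 60.2% and then 49.0%. At E15.5 Cldn12 led in XX with 27.4%, and its 3 libraries overlapped with those of the next gene, Cldn15, which in turn overlapped with Cldn11. The XX E11.5 sum ran from 30.35 to 251.1 TPM, and its order of claudins could not be resolved because neighbouring genes overlapped.

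Cldn11 (chr3:31149920-31164326), the claudin of the Sertoli cell barrier and of myelin, was in XX libraries at 10, 18.28 and 10.59 TPM at E11.5, then 22.42, 22.44 and 19.31 (E12.5), 18.35, 12.87 and 12.52 (E13.5) and finally 2.76, 3.55 and 3.02 by E15.5. XY libraries held Cldn11 at 10.92, 10.74 and 8.09 TPM at E11.5, then 82.25, 88.58 and 91.89 (E12.5), 155.7, 123.53 and 133.88 (E13.5) and finally 65.04, 63.63 and 58.72 by E15.5. The sexes overlapped at E11.5 and were apart by a wide margin from E12.5, with XY highest at E13.5. Cldn11 differed by -2.24 ± 0.20, -3.19 ± 0.21 and -4.27 ± 0.23 at the 3 stages from E12.5 (SE, adjusted p = 4.08e-09, 2.51e-11 and 1.31e-12). In XY it rose by 3.34 ± 0.21 from E11.5 to E12.5 and fell by 1.15 ± 0.19 on the log2 scale from E13.5 to E15.5 (adjusted p = 4.41e-11 and 0.000165). In XX it fell by 2.23 ± 0.23 from E13.5 to E15.5 (adjusted p = 1.02e-06).

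Cldn12 (chr5:5505015-5514976), a claudin without the PDZ-binding end of its relatives, was higher in XY at all stages. XX libraries held Cldn12 at 8.82, 5.77 and 7.85 TPM at E11.5, then 8.44, 7.24 and 6.67 (E12.5), 7.26, 5.11 and 6.21 (E13.5) and finally 5.36, 4.93 and 4.21 by E15.5. XY libraries held Cldn12 at 10.28, 9.51 and 11.53 TPM at E11.5, then 16.17, 17.1 and 15.47 (E12.5), 18.39, 15.19 and 14.9 (E13.5) and finally 13.83, 12.98 and 13.12 by E15.5. At every stage all XY libraries lay above all XX libraries, by a narrow gap at E11.5 and a wider one later. Cldn12 differed by -0.38 ± 0.14 at E11.5 and then -1.41 ± 0.14, -1.40 ± 0.14 and -1.50 ± 0.14 at the 3 later stages (SE, adjusted p = 0.0320, 1.94e-08, 2.29e-08 and 7.12e-09). The E11.5 call was lost without XX replicate 2 (-0.19, adjusted p = 0.196), XY replicate 1 (-0.39, 0.0592) or XY replicate 3 (-0.34, 0.0866), and when the 6 libraries of that stage alone were fitted (-0.39, 0.244).

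Cldn6 (chr17:23679348-23682446), a claudin of early embryonic epithelia, was lower at each later stage in XY cells (any change over the 4 stages, adjusted p = 0.000355). In XX it was at 51.14, 0.19 and 2.86 TPM at E11.5, then 0.61, 1.53 and 1.08 (E12.5), 0.31, 0.21 and 0.31 (E13.5) and finally 0.09, 0.1 and 0 by E15.5. XY libraries held Cldn6 at 22.07, 18.89 and 18.15 TPM at E11.5, then 4.04, 3.93 and 4.55 (E12.5), 1.12, 1.92 and 1.53 (E13.5) and finally 0.61, 0.41 and 0.18 by E15.5. XY libraries lay above XX libraries at each stage except for the XX replicate 1 of E11.5. Cldn6 was called at E12.5 alone (log2 -2.25 ± 0.97 SE, adjusted p = 0.0496), and this call was lost without any 1 of the 6 libraries of that stage (adjusted p = 0.0676 to 0.139). Without XX E11.5 replicate 1 the difference at E11.5 was -3.65 (adjusted p = 3.69e-05, against -0.13 with it). Cldn9, whose gene lies 137 bases from Cldn6, was present at lower levels. It was at 3.63, 3.37 and 4.52 TPM in XY E11.5 and below 1 TPM in every later library, and the sexes overlapped at E15.5. Without XX E11.5 replicate 1 it differed by -5.79 at that stage (adjusted p = 5.06e-06, against -1.32).

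**Figure D3:**
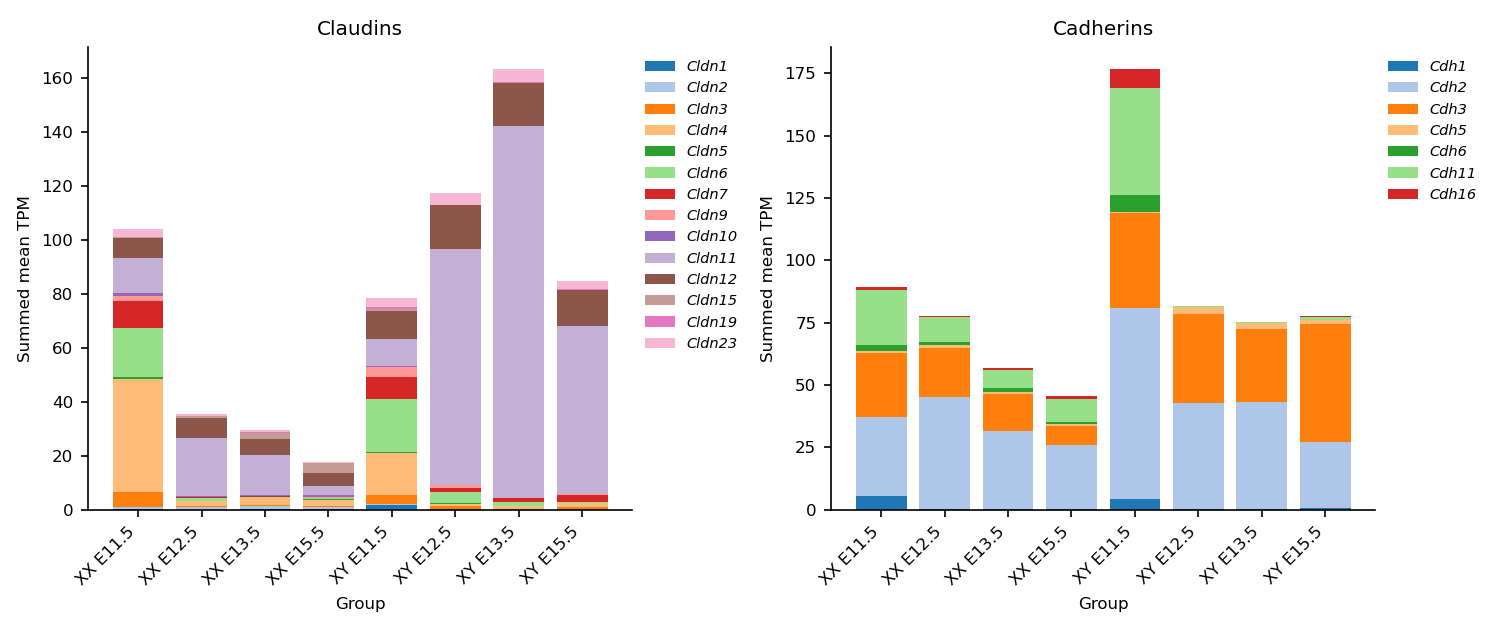
Mean TPM of the 14 claudins (left) and the 7 cadherins (right) stacked by gene in each of the 8 groups. Cldn11 fills most of the XY claudin bars from E12.5, and Cdh3 fills most of the XY cadherin bar of E15.5 (60.7%). The XX E11.5 bar rests on replicate 1 for Cldn3, Cldn4, Cldn6, Cldn7 and Cldn9.

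The pore-forming claudins went the other way. Cldn15, a cation-pore claudin known from the intestine, was at 0.81, 0.96 and 0.08 TPM in XX E12.5, where the sexes overlapped, 1.83, 2.02 and 2.94 in XX E13.5 and 3.45, 4.58 and 3.43 in XX E15.5, while all XY libraries from E12.5 on were at 0.15 TPM or less. The XX mean was higher by at least 4.82-fold, 17.5-fold and 25.7-fold at these stages, taking 3 counts over the XY group as the floor (adjusted p = 0.00280, 1.03e-06 and 6.50e-07). At E12.5 this bound did not hold for each library, since XX replicate 3 was under that floor. Cldn2, which forms cation and water pores, was at 1.23 ± 0.154 TPM in XX and 0.0367 ± 0.0351 in XY at E13.5 (mean ± SD of 3 libraries, adjusted p = 1.21e-06). Cldn10, an ion-pore claudin of the kidney, was at 1.03 ± 0.327 TPM in XX at E15.5, at least 6.06-fold above XY (adjusted p = 0.000111). All 3 were below 5 TPM in every library. Cldn2 and Cldn10 are known from kidney tubules too, and the 6 markers of the mesonephric tubule summed to 106.2 to 126.2 TPM in XX and 321 to 344.7 in XY at E15.5. That part was not tested.

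Of the other claudins, Cldn23 was higher in XY from E12.5 on, with 4.82 ± 0.414 TPM in XY and 0.837 ± 0.247 in XX at E13.5 (log2 -2.98 ± 0.66 SE, adjusted p = 0.000526). Cldn1, a barrier claudin, was at 1.39, 1.5 and 2.03 TPM in XY E11.5 and at most 0.6 TPM in every other library, and it was called higher in XY at E11.5 (log2 -2.69 ± 0.64 SE, adjusted p = 0.00209) and at E12.5 (adjusted p = 0.0377). The E12.5 call was lost without XX replicate 1 or 2 or XY replicate 2 or 3 (adjusted p = 0.0855 to 0.142). Cldn3, Cldn4 and Cldn7 were higher in XY at E11.5 once XX E11.5 replicate 1 was left out, at -2.06, -2.45 and -3.13 (adjusted p = 0.00584, 2.71e-06 and 8.52e-06), where with it they were at 0.68, 1.44 and 0.60. Cldn5, a claudin of vessel endothelium, and Cldn19, known from kidney and nerve, stayed under 1 TPM on average in every group. The 8 endothelial markers summed to 30.08 to 57.07 TPM over all 24 libraries, with 2 to 4 of them at a mean of 1 TPM or more in each group.

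As a sum, the 8 other tight junction genes were far more abundant than the claudins, at 354 to 692 TPM in all groups. F11r led this sum in every group except XX E15.5, where Cgn did. Gene by gene this did not hold: in XY E13.5 Cldn11, at 137.7 TPM, was above Jam2 (112.1 TPM) and all the others except F11r. The 8 genes did not move as a block. Cingulin and ZO-1 ended higher in XX, whereas JAM-A, JAM-B, JAM-C, occludin, tricellulin and ZO-3 ended higher in XY. All 8 were called at E15.5, 2 higher in XX and 6 in XY.

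Cgn (chr3:94760069-94787725), encoding cingulin, which links tight junctions to the actin and microtubule skeleton, was at 208.94, 165.82 and 136.1 TPM at E11.5, then 256.56, 213.13 and 287.51 (E12.5), 227.84, 239.86 and 247.87 (E13.5) and finally 291.26, 305.91 and 331.63 by E15.5 in XX libraries. XY libraries held Cgn at 58.34, 54.35 and 49.14 TPM at E11.5, then 77.62, 63.16 and 52.74 (E12.5), 95.36, 107.37 and 106.57 (E13.5) and finally 70.56, 76.68 and 75.23 by E15.5. All XX libraries lay above all XY libraries of every stage. Cgn differed by 1.75 ± 0.14 at E11.5 and then 1.76 ± 0.14, 1.28 ± 0.14 and 2.12 ± 0.15 at the 3 later stages (SE, adjusted p = 5.41e-09, 1.00e-09, 9.05e-08 and 4.32e-11). At E15.5 it was the most abundant of these 8 genes in XX, apart from F11r without overlap, while in XY it came after F11r and Jam2.

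F11r (chr1:171437561-171464593), encoding JAM-A, an adhesion molecule of epithelial tight junctions, was the most abundant tight junction gene in 7 of the 8 groups and changed sides. In XX it was at 378.04, 279.55 and 288.35 TPM at E11.5, then 377.21, 384.73 and 346.1 (E12.5), 282.44, 271.4 and 248.49 (E13.5) and finally 216.67, 217.14 and 167.04 by E15.5. XY libraries held F11r at 290.53, 299.29 and 276.7 TPM at E11.5, then 216.74, 209.12 and 182.07 (E12.5), 350.95, 376.31 and 394.16 (E13.5) and finally 379.74, 382.22 and 379.41 by E15.5. The sexes overlapped at E11.5, XX lay above XY at E12.5, and XY lay above XX at E13.5 and E15.5. F11r differed by 0.61 ± 0.10, -0.47 ± 0.10 and -1.01 ± 0.10 at the 3 stages from E12.5 (SE, adjusted p = 1.20e-05, 0.000203 and 8.55e-09). In XY it rose by 0.85 ± 0.10 from E12.5 to E13.5, and in XX it fell by 0.52 ± 0.10 from E13.5 to E15.5 (adjusted p = 4.17e-06 and 0.000589).

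Jam2 (chr16:84774123-84826380), encoding JAM-B, which binds JAM-C on neighbouring cells, rose in XY at each of the first 2 steps. XX libraries held Jam2 at 1.29, 1.73 and 2.38 TPM at E11.5, then 1.61, 2.47 and 2.12 (E12.5), 3.93, 3.9 and 4.73 (E13.5) and finally 9.03, 8.48 and 7.6 by E15.5. XY libraries held Jam2 at 1.13, 2.43 and 3.32 TPM at E11.5, then 36.99, 34.03 and 32.58 (E12.5), 107.94, 115.73 and 112.77 (E13.5) and finally 166.33, 177.54 and 171.92 by E15.5. Both sexes started near 2 TPM and overlapped at E11.5, and from E12.5 the gap was wide. Jam2 differed by -4.49 ± 0.25, -5.00 ± 0.25 and -4.83 ± 0.24 at the 3 stages from E12.5 (SE, adjusted p = 2.50e-12, 3.54e-13 and 3.46e-13). These XY rises were 3.93 ± 0.23 and 1.58 ± 0.20 (adjusted p = 2.32e-11 and 1.88e-05) and in XX by 1.06 ± 0.26 from E12.5 to E13.5 (adjusted p = 0.00402). Steps of both sexes from E13.5 to E15.5 were called with all libraries, at 0.63 ± 0.20 in XY and 0.80 ± 0.24 in XX. The XY call was lost without any 1 of its 6 libraries (adjusted p = 0.066 to 0.0788), and the XX call without E13.5 replicate 1 or 2 or E15.5 replicate 2 or 3 (0.0587 to 0.0892).

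Jam3, encoding JAM-C, the partner of JAM-B, differed far less. XX libraries held Jam3 at 20.39, 24.45 and 19.3 TPM at E11.5, then 34.43, 41.51 and 37.98 (E12.5), 30.05, 30.22 and 27.29 (E13.5) and finally 29.39, 34.58 and 23.12 by E15.5. XY libraries held Jam3 at 46.07, 39.77 and 45.32 TPM at E11.5, then 31.16, 36.81 and 36.28 (E12.5), 41.28, 31.82 and 33.89 (E13.5) and finally 40.95, 38.37 and 35.99 by E15.5. XY lay above XX at E11.5, E13.5 and E15.5, and the sexes overlapped at E12.5. The E13.5 difference of -0.22 ± 0.14 was not called (adjusted p = 0.155). Jam3 differed by -0.91 ± 0.14 at E11.5 and -0.37 ± 0.14 at E15.5 (SE, adjusted p = 1.71e-05 and 0.0196). The E15.5 call was lost without XX replicate 1 (-0.32, adjusted p = 0.0919), XX replicate 3 (-0.27, 0.111) or XY replicate 1 (-0.32, 0.0705). An unnamed gene model on the other strand overlaps 36.2% of its exon bases, and whether counting used strand is not given in the sources used here. By level, Jam2 overtook Jam3 in XY: their libraries overlapped at E12.5 and Jam2 was higher at E13.5 and E15.5.

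Tjp1 (chr7:65296165-65527850), encoding the ZO-1 scaffold that binds claudins and actin, crossed over in the opposite direction to F11r. XX libraries held Tjp1 at 6.76, 4.38 and 6.78 TPM at E11.5, then 10.45, 11.27 and 9.7 (E12.5), 10.04, 9.33 and 9.59 (E13.5) and finally 14.88, 15.15 and 13.35 by E15.5. XY libraries held Tjp1 at 13.36, 12.44 and 11.38 TPM at E11.5, then 9.74, 8.52 and 11.97 (E12.5), 9.09, 8.61 and 9.59 (E13.5) and finally 9.32, 7.27 and 9.13 by E15.5. XY was higher at E11.5, the sexes overlapped at E12.5 and E13.5, and XX was higher at E15.5. Tjp1 differed by -0.73 ± 0.11 at E11.5 and 0.75 ± 0.11 at E15.5 (SE, adjusted p = 1.75e-05 and 3.28e-06). In XX it rose by 0.69 ± 0.11 from E13.5 to E15.5 (adjusted p = 0.000122), and over the 4 XY stages the test for any change did not call it (adjusted p = 0.273).

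Occludin (Ocln), a strand protein, rose late in XY, from 1.52 ± 0.401 to 8.91 ± 0.862 TPM between E13.5 and E15.5 (log2 2.50 ± 0.55 SE, adjusted p = 0.00244), and was lower in XX at E15.5 with 2.06 ± 0.365 TPM (log2 -2.20 ± 0.55 SE, adjusted p = 0.00148). Its E12.5 call, higher in XX, was lost without any 1 of the 6 libraries (adjusted p = 0.0522 to 0.11). At E11.5 it was at 0.97 with and -0.83 without XX replicate 1 (adjusted p = 0.136 and 0.0106). Marveld2, encoding tricellulin of the corners where several cells meet, differed by 0.04 ± 0.23 at E12.5 (adjusted p = 0.897) and was higher in XY later, with 8.47 ± 0.404 TPM against 2.66 ± 0.309 at E13.5 (log2 -1.60 ± 0.24 SE, adjusted p = 5.70e-06). Tjp3, encoding the ZO-3 scaffold, was higher in XY from E12.5 on, with 2.40 ± 0.381 TPM against 0.487 ± 0.257 at E13.5 (log2 -2.67 ± 0.50 SE, adjusted p = 8.90e-05). At E11.5 it was at 0.28 with and -0.81 without XX replicate 1 (adjusted p = 0.623 and 0.0463), and it overlaps the more abundant Apba3 by 40 exon bases.

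The make-up of cadherin RNA differed between stages and between the sexes. N-cadherin (Cdh2) led the 7 cadherins without overlap at E12.5 and E13.5 in both sexes, in XX E15.5 and in XY E11.5. In XY E15.5 P-cadherin (Cdh3) held 60.7% of a summed 77.9 TPM, and in XX E11.5 the libraries of Cdh2, Cdh3 and Cdh11 overlapped. The summed level in XY went from 176.7 TPM at E11.5 to 81.8 at E12.5, and in XX it went from 77.7 at E12.5 to 56.9 and then 45.4. Called at E15.5 were Cdh3 (higher in XY), Cdh6 and Cdh11 (both higher in XX).

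Cdh2, a classical cadherin of mesenchymal and neural cells, was in XX libraries at 26.07, 25.73 and 43.16 TPM at E11.5, then 43.02, 43.38 and 48.28 (E12.5), 33.75, 30.5 and 29.78 (E13.5) and finally 25.06, 29.05 and 22.86 by E15.5. XY libraries held Cdh2 at 77.7, 78.49 and 73.49 TPM at E11.5, then 41.35, 44.41 and 41.54 (E12.5), 42.81, 40.27 and 45.59 (E13.5) and finally 28.29, 26.04 and 25.15 by E15.5. All XY libraries were above all XX libraries at E11.5, and at E15.5 the sexes overlapped. Cdh2 differed by -1.16 ± 0.13 at E11.5 and -0.41 ± 0.13 at E13.5 (SE, adjusted p = 5.66e-07 and 0.00971), and the E13.5 call was lost without XX replicate 3 (-0.35, adjusted p = 0.0519). At E15.5 it was not called (log2 0.02 ± 0.13 SE, adjusted p = 0.877). In XY it fell by 0.62 ± 0.13 in the first step and by 0.71 ± 0.13 in the last step (adjusted p = 0.000462 and 0.000537).

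Cdh3 (chr8:106510852-106556911), a classical cadherin of epithelia, was higher in XY at all stages. XX libraries held Cdh3 at 26.73, 17.41 and 32.62 TPM at E11.5, then 20.08, 20.84 and 18.58 (E12.5), 15.89, 13.38 and 14.94 (E13.5) and finally 7.22, 8.19 and 7.39 by E15.5. XY libraries held Cdh3 at 36.69, 42.89 and 34.73 TPM at E11.5, then 37.52, 36.35 and 33.12 (E12.5), 29.9, 27.04 and 30.16 (E13.5) and finally 47.5, 49.32 and 45.1 by E15.5. The ranges were separate at every stage and farthest apart at E15.5. Cdh3 differed by -0.51 ± 0.13 at E11.5 and then -1.05 ± 0.13, -0.92 ± 0.13 and -2.58 ± 0.14 at the 3 later stages (SE, adjusted p = 0.00318, 4.82e-07, 2.47e-06 and 7.91e-13). From E13.5 to E15.5 it rose by 0.69 ± 0.13 in XY and fell by 0.96 ± 0.13 in XX (adjusted p = 0.000453 and 3.21e-05). The E11.5 difference was not called when the 6 libraries of that stage alone were fitted (-0.52, adjusted p = 0.126). Surface epithelium is also known to carry Cdh3, and its 8 markers summed to 645.6 to 834 TPM in XX and 208.3 to 304.9 in XY from E12.5 on.

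Cdh11 (chr8:102632095-102785493), a cadherin of mesenchyme, fell to 0.5 TPM or less in XY cells between E11.5 and E12.5 and stayed at 6.34 TPM or more in XX. XX libraries held Cdh11 at 14.36, 8.61 and 42.61 TPM at E11.5, then 11.87, 9.43 and 7.77 (E12.5), 6.57, 6.34 and 9.83 (E13.5) and finally 7.26, 10.69 and 10.11 by E15.5. XY libraries held Cdh11 at 35.38, 34.85 and 57.97 TPM at E11.5, then 0.25, 0.34 and 0.5 (E12.5), 0.3, 0.37 and 0.37 (E13.5) and finally 0.98, 1.7 and 0.93 by E15.5. At E11.5 the sexes overlapped, and from E12.5 all XX libraries lay far above all XY libraries. Cdh11 differed by 4.74 ± 0.53, 4.46 ± 0.53 and 2.79 ± 0.46 at the 3 stages from E12.5 (SE, adjusted p = 1.82e-07, 3.03e-07 and 1.98e-05), and in XY it fell by 6.85 ± 0.55 in the first step (adjusted p = 3.14e-09). At E11.5 XX replicate 3 had the highest level of both Cdh11 and the 7 interstitial markers (755 TPM). In XY these markers moved with Cdh11, being at 264.5 to 480 TPM at E11.5, 9.08 to 10.06 at E12.5, 5.74 to 7.67 at E13.5 and 35.67 to 47.13 at E15.5, and they were at 69.96 to 185.1 TPM in XX at E12.5 to E15.5. In XY E12.5 the number at 1 TPM or more was 2 of 7 and none was at 0. Their part in the Cdh11, Cdh6 and Cdh16 results was not tested.

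Cdh6 and Cdh16, cadherins known from kidney epithelium, were called higher in XY at E11.5 and higher in XX at E12.5 and E13.5. Cdh6 was at 5.02, 5.87 and 10.41 TPM in XY E11.5 and 0.05, 0.09 and 0.04 in XY E12.5, and at 1.86, 1.89 and 0.57 in XX E12.5. It was higher in XY at E11.5 (log2 -1.07 ± 0.35 SE, adjusted p = 0.0188), a call lost without XX replicate 2 (-0.73, adjusted p = 0.0832) or XY replicate 3 (-0.69, 0.141) and in the fit of the 6 libraries alone (-1.09, 0.145), and higher in XX at E12.5 (log2 3.99 ± 0.49 SE, adjusted p = 4.44e-07) and both later stages. The E15.5 call of Cdh6 was lost by limma on log2(TPM + 1) (0.50, adjusted p = 0.104, and 0.15 over all genes above 0). Cdh16 was at 7.67, 6.98 and 8.18 TPM in XY E11.5 and at 0 in all 3 XY E12.5 libraries, at least 62.6-fold lower by the floor of 3 counts (adjusted p = 1.16e-06). In XX it was at 1.13 ± 0.955 TPM at E11.5 and 0.553 ± 0.181 at E12.5, so XY was higher at E11.5 (log2 -3.06 ± 0.66 SE, adjusted p = 0.00107) and XX at E12.5, by at least 3.72-fold (adjusted p = 0.00215). Its E13.5 call was lost without XX replicate 1 or 3 or XY replicate 2 or 3 (adjusted p = 0.073 to 0.15). Among mesonephric markers in XY, Pax8 went from a mean of 22.9 TPM at E11.5 to 3.66 at E12.5, while Spp1 was at 347 and 409.6 TPM.

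VE-cadherin (Cdh5), the cadherin of vessel endothelium, rose in XY from 0.34, 0.26 and 0.25 TPM at E11.5 to 3.22, 2.75 and 2.65 at E12.5 (log2 3.54 ± 0.29 SE, adjusted p = 2.06e-09). It was higher in XX at E11.5 (log2 1.28 ± 0.30 SE, adjusted p = 0.00160), a call lost in the fit of the 6 libraries alone (1.27, 0.0874), and higher in XY on the following days E12.5 and E13.5 (-1.65 ± 0.26 and -1.52 ± 0.27). The 8 endothelial markers summed to 31.7 to 46.24 TPM in XY E11.5 and 35.12 to 39.91 in XY E12.5. Only 3 of the 8 were at a mean of 1 TPM or more in XY E11.5 and 2 in XY E12.5, so the sums describe few genes. The part of endothelial cells in the Cdh5 result was not tested. E-cadherin (Cdh1), the main cadherin of epithelia, was at 3.86, 4.46 and 4.75 TPM in XY E11.5 and under 1 TPM in every library from E12.5 on. Without XX replicate 1 it was higher in XY at E11.5 (-3.47, adjusted p = 0.00218, against 0.44 with it).

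**Figure D4:**
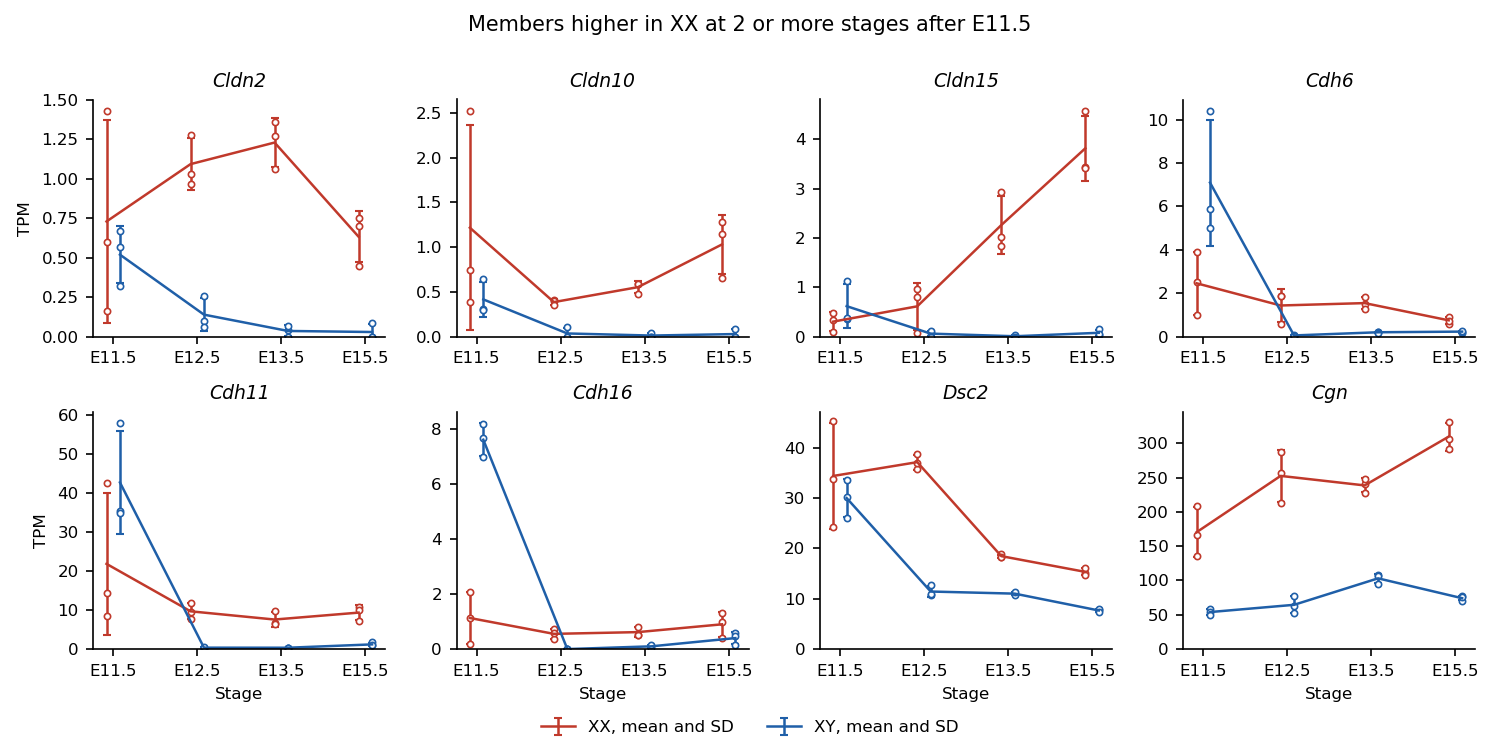
TPM of 8 junction genes that were higher in XX at 2 or more stages after E11.5, by stage, with 1 point per library and the mean and SD of each group of 3 (lower bars stop at 0). Cdh11, Cdh6 and Cdh16 are high in XY at E11.5 and under 2 TPM there from E12.5, Cldn15 climbs in XX, and Cgn is high in XX throughout.

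Nectins start adherens contacts and bind afadin. Nectin2 made up 88.1% to 95.3% of the RNA of the 3 nectins in every group, and the minor nectin changed with sex: from E13.5 on, Nectin1 came second in XY and Nectin3 came second in XX, without overlap with the next gene.

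Nectin2 (chr7:19716644-19749573) was in XX libraries at 279.06, 266.05 and 264.1 TPM at E11.5, then 283.74, 257.96 and 261.28 (E12.5), 225.96, 183.38 and 183.06 (E13.5) and finally 163.92, 218.14 and 110.66 by E15.5. XY libraries held Nectin2 at 169.94, 196.32 and 161.94 TPM at E11.5, then 297.73, 248.57 and 227.34 (E12.5), 313.63, 352.26 and 364.95 (E13.5) and finally 365.75, 366.91 and 393.21 by E15.5. XX was higher at E11.5, the sexes overlapped at E12.5 and XY was higher at E13.5 and E15.5. Nectin2 differed by 0.67 ± 0.15 in the E11.5 libraries, -0.77 ± 0.15 in the E13.5 libraries and -1.17 ± 0.15 in the E15.5 libraries (SE, adjusted p = 0.000972, 0.000103 and 4.97e-07), and in XY it rose by 0.73 ± 0.15 in the first step (adjusted p = 0.000272).

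Nectin1 (chr9:43737075-43807461) followed the same order of crossing. XX libraries held Nectin1 at 3.96, 4.21 and 5.73 TPM at E11.5, then 4.49, 6.83 and 4.39 (E12.5), 3.37, 2.83 and 3.22 (E13.5) and finally 3.1, 3.65 and 2.58 by E15.5. XY libraries held Nectin1 at 1.85, 2.69 and 2.77 TPM at E11.5, then 7.34, 7.31 and 6.75 (E12.5), 8.46, 9.62 and 14.36 (E13.5) and finally 16.06, 12.7 and 13.12 by E15.5. XX was above XY at E11.5, the sexes overlapped at E12.5, and XY was well above XX later. Nectin1 differed by 1.12 ± 0.20 at E11.5 and then -0.65 ± 0.20, -1.73 ± 0.21 and -2.12 ± 0.21 at the 3 later stages (SE, adjusted p = 0.000169, 0.00770, 2.57e-07 and 1.17e-08), and in XY it rose by 1.86 ± 0.21 in the first step (adjusted p = 1.58e-07). The E12.5 difference was not called by limma on log2(TPM + 1) (-0.40, adjusted p = 0.066).

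Nectin3 (chr16:46387665-46498535), which binds Nectin1 and Nectin2 across cells, went the other way. XX libraries held Nectin3 at 13.48, 12.56 and 10.09 TPM at E11.5, then 9.94, 7.72 and 6.52 (E12.5), 10.58, 11.99 and 13.54 (E13.5) and finally 18.48, 16.38 and 18.21 by E15.5. XY libraries held Nectin3 at 17.73, 11.56 and 12.56 TPM at E11.5, then 7.69, 8.58 and 7.6 (E12.5), 6.43, 6.33 and 5.65 (E13.5) and finally 7.76, 7.53 and 7.42 by E15.5. The sexes overlapped at E11.5 and E12.5, and XX was above XY at E13.5 and E15.5. Nectin3 differed by 0.95 ± 0.18 at E13.5 and 1.26 ± 0.18 at E15.5 (SE, adjusted p = 9.84e-05 and 2.82e-06), and in XX it rose by 0.83 ± 0.18 from E12.5 to E13.5 (adjusted p = 0.00139).

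Epcam (chr17:87635979-87651127) was not called between the sexes at any stage. It was at 8.74 ± 1.10 TPM in XX and 8.71 ± 1.17 in XY at E13.5, and at 28.7 ± 2.68 and 24.3 ± 0.561 at E15.5. The E15.5 difference was 0.31 ± 0.54 (adjusted p = 0.625). At E11.5 it was at 0.80 with XX replicate 1 and at -1.28 without it (adjusted p = 0.241 and 7.66e-06). From E13.5 to E15.5 it rose in XX by 1.80 ± 0.57 (adjusted p = 0.0244), a call lost without any 1 of XX E13.5 replicates 1, 2 and 3 and XX E15.5 replicates 1 and 3 (0.0567 to 0.0829), and in XY the step of 1.47 ± 0.55 was not called (adjusted p = 0.0659). Germ cells are known to carry Epcam, and 8 germ cell markers summed to 121.6 to 189.4 TPM in XX and 62.04 to 105.6 in XY at E15.5, against at most 36.65 in every earlier library. Their part was not tested.

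Connexins showed wide differences. Their summed RNA stayed between 218 and 321 TPM in XX and went from 291.3 TPM at E11.5 to 1001, 1180 and 1247 in XY. Gja1 made up 85.7% to 97.0% of it. From E12.5 Gjb2 was the second connexin in XY, and Gjc1 held that place in XX, both without overlap with the next gene.

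Gja1 (chr10:56377300-56390419), encoding the channel protein Cx43, the main connexin of Sertoli and granulosa cells, was the most abundant of the 42 genes in XY from E12.5. XX libraries held Gja1 at 332.47, 191.45 and 262.61 TPM at E11.5, then 322.73, 291.35 and 307.51 (E12.5), 208.08, 201.6 and 201.33 (E13.5) and finally 197.8, 226.4 and 230.66 by E15.5. XY libraries held Gja1 at 267.52, 284.54 and 255.19 TPM at E11.5, then 910.05, 846.03 and 816.66 (E12.5), 960.84, 1038.26 and 1112.94 (E13.5) and finally 1239.96, 1247.77 and 1140.41 by E15.5. The sexes overlapped at E11.5 and were separate from E12.5. Gja1 differed by -1.68 ± 0.11, -2.29 ± 0.11 and -2.42 ± 0.11 at the 3 stages from E12.5 (SE, adjusted p = 2.72e-11, 2.27e-13 and 1.08e-13). It rose in XY by 1.88 ± 0.11 in the first step (adjusted p = 1.64e-11) and fell in XX by 0.37 ± 0.11 from E12.5 to E13.5 (adjusted p = 0.0124).

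Gjb2 (chr14:57098602-57104702), encoding Cx26, a connexin of epithelia and the inner ear, was nearly absent from XX libraries. XX libraries held Gjb2 at 0.45, 0.08 and 0.17 TPM at E11.5, then 0.19, 0.1 and 0.52 (E12.5), 0, 0.1 and 0.18 (E13.5) and finally 0.15, 0 and 0 by E15.5. XY libraries held Gjb2 at 2.74, 1.98 and 1.53 TPM at E11.5, then 136.87, 135.43 and 129.39 (E12.5), 132.85, 127.22 and 136.19 (E13.5) and finally 30.18, 31.07 and 27.5 by E15.5. XY libraries were between 127.22 and 136.87 TPM at E12.5 and E13.5 and lower at E15.5, and no XX library exceeded 0.52 TPM. Gjb2 differed by -3.11 ± 0.44 in the E11.5 libraries, -9.14 ± 0.37 in the E12.5 libraries and -10.35 ± 0.42 in the E13.5 libraries (SE, adjusted p = 1.05e-05, 2.17e-14 and 2.58e-14). At E15.5, where the XX libraries were at or under 3 counts, XY was at least 182-fold higher (adjusted p = 8.87e-13). In XY it rose by 6.20 ± 0.29 in the first step and fell by 2.17 ± 0.24 in the last (adjusted p = 8.41e-13 and 1.74e-06).

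Gjc1 (chr11:102799477-102819686), encoding Cx45, was higher in XX at E13.5 and E15.5. XX libraries held Gjc1 at 15.54, 9.38 and 17.42 TPM at E11.5, then 9.86, 10.58 and 7.35 (E12.5), 10.14, 12.44 and 11.02 (E13.5) and finally 8.07, 10.28 and 11.21 by E15.5. XY libraries held Gjc1 at 12.48, 18.12 and 25 TPM at E11.5, then 8.02, 7.77 and 7.69 (E12.5), 7.5, 7.08 and 6.98 (E13.5) and finally 6.09, 5.1 and 6.82 by E15.5. Ranges overlapped at E11.5 and E12.5 and were separate at E13.5 and E15.5, by narrow gaps. Gjc1 differed by 0.51 ± 0.21 at E13.5 and 0.71 ± 0.21 at E15.5 (SE, adjusted p = 0.0351 and 0.00548). The E13.5 call was lost without XX replicate 2 or 3 or XY replicate 2 or 3 (adjusted p = 0.0657 to 0.0922), and the E15.5 call without XX replicate 3 (0.54, adjusted p = 0.0507). In XY it fell by 0.88 ± 0.20 in the first step (adjusted p = 0.00112). Gja4, encoding Cx37, known from oocytes and vessel endothelium, was at 4.36 ± 0.672 TPM in XX and 1.45 ± 0.322 in XY at E12.5, its only call between the sexes (log2 1.38 ± 0.40 SE, adjusted p = 0.00545). In XX it rose by 1.62 ± 0.41 in the first step (adjusted p = 0.00499), a call lost when the 6 libraries alone were fitted (1.59, adjusted p = 0.138).

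Desmosome genes differed in direction. In XY the plaque proteins plakoglobin (Jup) and desmoplakin (Dsp) rose in the first step, while the adhesion protein desmocollin (Dsc2) fell and stayed higher in XX. Dsg2, the other adhesion protein, was called higher in XY at E12.5 and E13.5, and the plaque gene Pkp2 higher in XX at E11.5 and in XY at E13.5. The summed level of the 5 genes went in XX from 129.4 TPM at E12.5 to 61.9 and 50.9, and in XY it was 139.5, 172.8 and 145.6. From E13.5 the order in XY was Jup, Dsp, Pkp2, Dsc2 and Dsg2, and in XX Jup, Dsc2, Pkp2, Dsg2 and Dsp, and no neighbours in these orders overlapped at E13.5 or E15.5.

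Jup (chr11:100368856-100397839), which serves both desmosomes and adherens junctions, was in XX libraries at 42.41, 39.78 and 49.09 TPM at E11.5, then 55.2, 53.77 and 54.15 (E12.5), 27.85, 30.13 and 25.97 (E13.5) and finally 25.44, 27.18 and 19.21 by E15.5. XY libraries held Jup at 32.9, 48.77 and 34.17 TPM at E11.5, then 89.46, 75.82 and 70.7 (E12.5), 117.46, 119.44 and 113.13 (E13.5) and finally 103.57, 105.62 and 108.7 by E15.5. At E11.5 the sexes overlapped, and later all XY libraries lay above all XX libraries. Jup differed by 0.30 ± 0.12 at E11.5 and then -0.73 ± 0.12, -1.87 ± 0.12 and -2.04 ± 0.12 at the 3 later stages (SE, adjusted p = 0.0428, 1.33e-05, 1.49e-11 and 3.79e-12). The E11.5 call was lost without XX replicate 2 or 3 or XY replicate 1 or 3 (adjusted p = 0.0593 to 0.206). In XY it rose by 1.22 ± 0.12 and 0.53 ± 0.11 in the first 2 steps, and in XX it fell by 0.61 ± 0.12 from E12.5 to E13.5 (adjusted p = 1.89e-08, 0.00304 and 0.000454).

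Dsp (chr13:38151294-38198577), which anchors intermediate filaments, was the lowest of the 5 in XX from E12.5 and rose in XY. XX libraries held Dsp at 7.17, 2.21 and 4.41 TPM at E11.5, then 3.57, 2.78 and 2.93 (E12.5), 1.56, 1.61 and 1.48 (E13.5) and finally 1.51, 0.99 and 0.88 by E15.5. XY libraries held Dsp at 5.42, 3.71 and 3.75 TPM at E11.5, then 22.9, 17.43 and 18.93 (E12.5), 22.06, 24.42 and 24.97 (E13.5) and finally 19.71, 19.98 and 19.65 by E15.5. The sexes overlapped at E11.5, and from E12.5 every XY library was far above every XX library. Dsp differed by -2.90 ± 0.24, -3.93 ± 0.26 and -4.37 ± 0.27 at the 3 stages from E12.5 (SE, adjusted p = 2.17e-09, 4.31e-11 and 1.36e-11), and in XY it rose by 2.43 ± 0.24 in the first step (adjusted p = 3.52e-08).

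Dsc2 was lower in XY from E12.5. XX libraries held Dsc2 at 45.19, 24.15 and 33.74 TPM at E11.5, then 38.66, 35.74 and 36.9 (E12.5), 18.3, 18.78 and 18.27 (E13.5) and finally 15.12, 16.11 and 14.73 by E15.5. XY libraries held Dsc2 at 33.61, 30.28 and 26.02 TPM at E11.5, then 12.71, 10.69 and 10.87 (E12.5), 10.96, 10.68 and 11.37 (E13.5) and finally 7.74, 7.97 and 7.28 by E15.5. Libraries of both sexes overlapped at E11.5, and the level fell later in both, in XY from the first step. Dsc2 differed by 1.50 ± 0.13, 0.82 ± 0.13 and 1.07 ± 0.13 at the 3 stages from E12.5 (SE, adjusted p = 3.22e-09, 1.36e-05 and 3.94e-07). In XY it fell by 1.19 ± 0.13 in the first step, and in XX by 0.77 ± 0.13 from E12.5 to E13.5 (adjusted p = 1.50e-07 and 0.000163).

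Pkp2 (chr16:16213345-16272712), encoding the plaque protein plakophilin, fell after E12.5 in both sexes. XX libraries held Pkp2 at 44.3, 22.8 and 41.6 TPM at E11.5, then 28.72, 33.03 and 30.15 (E12.5), 12.15, 10.77 and 10.69 (E13.5) and finally 7.87, 9.08 and 6.7 by E15.5. XY libraries held Pkp2 at 22.24, 20.99 and 17.4 TPM at E11.5, then 21.94, 24.1 and 27.57 (E12.5), 16.61, 16.51 and 17.35 (E13.5) and finally 9.98, 8.08 and 9.82 by E15.5. XX was above XY at E11.5 and E12.5, although the E12.5 difference was not called (log2 0.12 ± 0.16 SE, adjusted p = 0.526), XY was above XX at E13.5, and the sexes overlapped at E15.5. Pkp2 differed by 0.91 ± 0.16 at E11.5 and -0.53 ± 0.16 at E13.5 (SE, adjusted p = 0.000116 and 0.00700). It fell by 1.22 ± 0.16 in XX from E12.5 to E13.5 and by 0.87 ± 0.16 in XY from E13.5 to E15.5 (adjusted p = 1.87e-05 and 0.000570). Dsg2, a desmoglein, was at 2.66 ± 0.0361 TPM in XX and 4.45 ± 0.181 in XY at E13.5 (log2 -0.69 ± 0.19 SE, adjusted p = 0.00294). Its E12.5 call, also higher in XY, was lost without XX replicate 1 or 2 or XY replicate 3 (adjusted p = 0.0582 to 0.0659).

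Across stages, with all libraries in the fit, the first step had the most called genes in both sexes, and in XX this order changed with the method. In XY, 30 of the 42 genes were called between E11.5 and E12.5, 13 up and 17 down, where 51.9% of all genes were called (27.1% up, 24.8% down). Between E12.5 and E13.5 the count was 7 (6 up and 1 down, on 16.6% of all genes, 8.02% up and 8.62% down), and from E13.5 to E15.5 it was 12 (on 21.3%). The median absolute log2 change of the 42 genes in the first XY step was 1.77, against 0.509 over all genes, with the limits given for the size of the sex differences. In XX, 24 genes were called in the first step (7 up and 17 down, on 34.0% of all genes, 16.7% up and 17.3% down), 9 in the second (3 up and 6 down, on 31.7%, 14.2% and 17.4%) and 8 in the last (4 and 4, on 25.6%, 12.8% and 12.8%). The XX first step was 14 without XX E11.5 replicate 1. When its 6 libraries alone were fitted, edgeR called 0 of the 42 genes, with 16 at an unadjusted p under 0.05. That fit called 1024 of all 16190 genes. Fitted in that way, the second and last XX steps gave 16 and 19, where 6448 and 5656 of all genes were called. On all libraries DESeq2 called 23 in the first XX step, and limma called 12 or 13 there and 13 to 17 in the second. None of the 24 first-step XX calls held under every alternative. Any change over the 4 stages was called for 36 genes in XX (74.0% of all genes) and 37 in XY (70.3%).

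A rule chosen after the values were seen joins the first XY step with the later sex difference. Rising in XY at the first step and being higher in XY at all 3 later stages was met by 8 of the 42 genes (13.8% of all genes met it): Cldn11, Cldn12, Jam2, Nectin1, Gja1, Gjb2, Dsp and Jup, which cover all 4 junction types. Falling in XY at the first step and being higher in XX at all 3 later stages was met by 6 (11% of all genes): Cldn2, Cldn10, Cldn15, Cdh6, Cdh11 and Dsc2. The 6 hold pore-forming claudins and cadherin-type genes and no connexin, of which the list has only 4. Both counts lay near the shares of all genes, so the junction types among these genes are a description only.

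**Figure D5:**
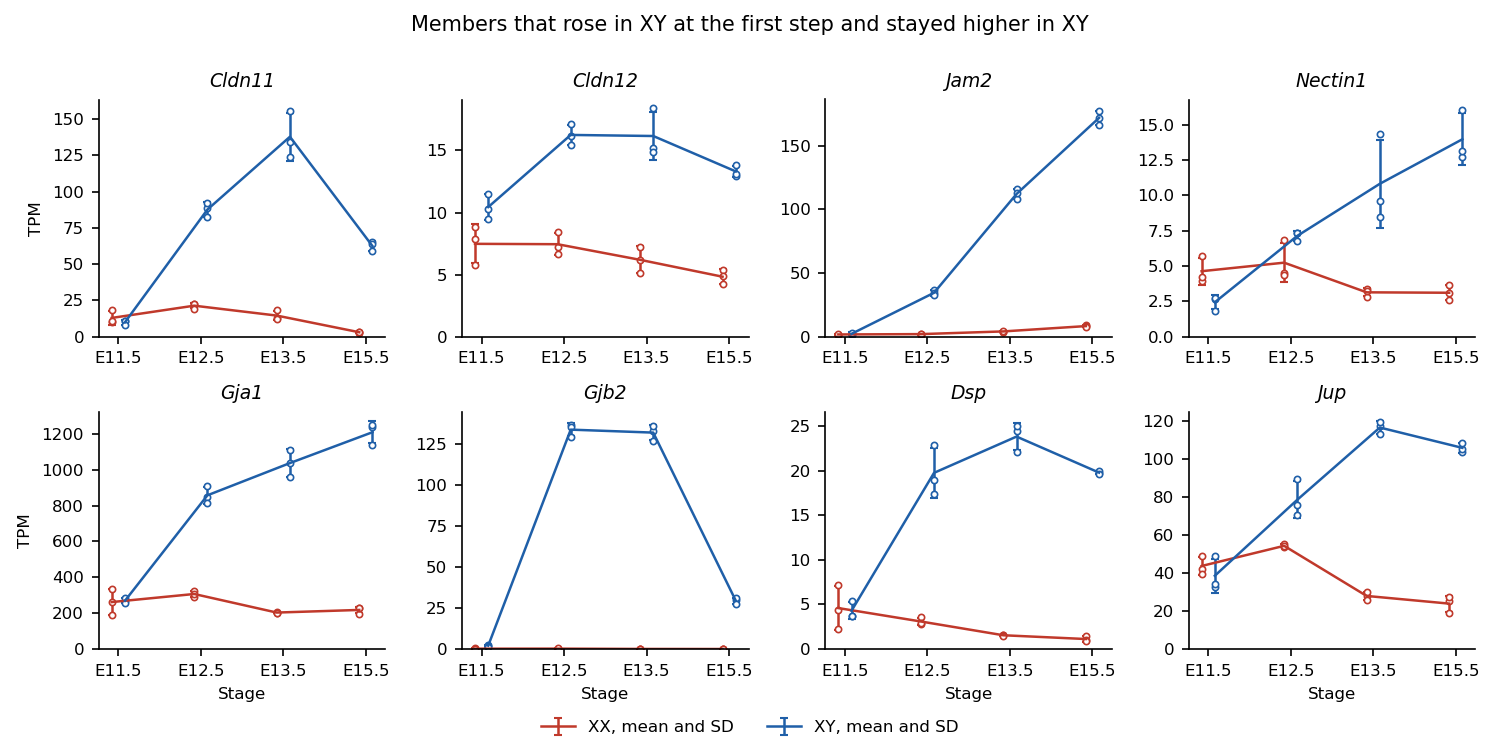
TPM of the 8 junction genes that rose in XY between E11.5 and E12.5 and were higher in XY at the 3 later stages, with 1 point per library and the mean and SD of each group of 3 (lower bars stop at 0). Jam2 keeps climbing to 172 TPM in XY at E15.5, Gjb2 drops to 29.6 TPM, and Cldn11 peaks at E13.5.

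The accompanying lists, 7 in number, hold junction partners and regulators. Of 14 catenins and adherens adaptors tested, 8 were called at E11.5 (all 8 higher in XY), 8 at E12.5 (7 higher in XY), 11 at E13.5 (10 higher in XY) and 11 at E15.5 (7 higher in XY), on backgrounds of 42%, 62.1%, 66.1% and 69.4% of all genes. The median log2 difference of this list was -1.39 at E15.5 (0.0456 over all genes). Ctnna2, an alpha catenin known from neurons, was at 1.53 ± 0.349 TPM in XX and 60.7 ± 2.04 in XY at E15.5 (-5.23 ± 0.25, adjusted p = 1.73e-13), and Plekha7, an adaptor of the zonula adherens, was at 1.88 ± 0.316 and 16.5 ± 1.31 (-3.89 ± 0.46, adjusted p = 2.39e-07). Of 15 cadherins outside the 42, 12 were called at E12.5 (8 higher in XX) and 10 at E15.5 (6 higher in XX), with a median of 1.68 at E15.5, and Cdh23, known from hair cells, was higher in XY (14.4 ± 4.16 and 53.6 ± 4.89 TPM, -2.64 ± 0.19, adjusted p = 1.11e-10). Of 23 polarity and junction scaffold genes, 9 were higher in XX and 9 in XY at E15.5: Magi1, a ZO-like scaffold, was higher in XX (24.3 ± 2.76 and 4.23 ± 0.391 TPM, 2.93 ± 0.14, adjusted p = 2.07e-13) and Scrib, a basolateral polarity gene, was higher in XY (12.6 ± 0.504 and 43.3 ± 0.612 TPM, -2.72 ± 0.13, adjusted p = 1.70e-13).

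The shares called in the 4 lists that follow lay below the 69.4% of all genes called at E15.5. Other tight junction genes were called for 9 of 14 at that stage (5 higher in XX and 4 in XY, median 0.0955), among them Lsr, the angulin of tricellular corners, at 84.0 ± 20.1 TPM in XX and 347 ± 4.34 in XY (-2.01 ± 0.17, adjusted p = 1.38e-09). The other connexins and pannexins were called for 5 of 9 (4 and 1, median -0.131). At E11.5, E12.5 and E13.5 they were called for 7, 8 and 8 of 9, on 42%, 62.1% and 66.1% of all genes. At E15.5 the other desmosome genes were called for 3 of 6 (2 and 1, median -0.198). Epithelial and mesenchymal regulators were called for 9 of 15 (5 and 4, median -0.0559). Snai2, a repressor of epithelial genes, was at 23.2 ± 1.58 TPM in XX and 9.89 ± 1.19 in XY (1.29 ± 0.22, adjusted p = 2.79e-05), and Esrp2, an epithelial splicing regulator, was at 1.30 ± 0.439 and 4.69 ± 0.214 (-1.66 ± 0.40, adjusted p = 0.000885).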

How the data were processed

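RNA of 24 libraries was analysed, 3 in each of 8 groups of sex and stage. The authors deposited estimated counts and TPM values per gene for 32040 genes, per the file headers. The authors' estimated counts were not whole in 17.5% of values and were rounded here. The TPM values of the deposited table summed to 93.9% to 96.2% of the full TPM scale in each library. Reads were placed on mm10, per the submitters' processing notes. The aligner, counter, gene annotation and use of strand are not given in the sources used here. Per the labels' protocols, RNA was amplified by a low-input cDNA kit. No molecular identifiers are named there, so limits of detection cover counting error only.

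The analysis used edgeR 4.0.16 (R 4.3.3) with its filter on low counts (16190 genes kept), TMM scaling, one model of 8 groups over all 24 libraries (16 residual degrees of freedom, common biological coefficient of variation 17.4%), the robust quasi-likelihood test and Benjamini-Hochberg adjustment over all genes, with calls at an adjusted p under 0.05. There were 13 comparisons: XX minus XY at 4 stages, 3 steps in each sex, any change in each sex and the sex-by-stage interaction. Folds against a group at or under 3 counts in every library use 3 counts over that group as the floor. The floor of 3 counts was 0.081 to 0.266 CPM of a library. TPM ratios can differ from fitted differences, since the fit does not use gene length. Positions are gene spans of RefSeq on GRCm38.p6, the same build. Exon overlaps with other genes were taken from the GENCODE M21 annotation.

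The genes and lists were chosen with earlier results of these data known. Every member could be named, and values per library with full statistics were kept for the 21 members that reached 10 TPM in a group mean and were called in an XX minus XY comparison. Alternatives were other scaling (DESeq2 size factors), no filter or at least 10 counts in every library, DESeq2 1.42.0, limma 3.58.1 on log2(TPM + 1) or log2(TPM + 0.1), a minimum log2 change of 1, only the libraries compared, the replicate number as a block, leaving out each library and, added after seeing the data, leaving out E11.5. The scripts were tested on simulated data.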

Additional observations from a re-analysis of the deposited data

Results flagged for a closer look

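For 32 of the 42 genes the XX minus XY difference changed with stage by the sex-by-stage interaction of edgeR's quasi-likelihood test, where 70.1% of all genes did. The difference itself was tested here, over all 24 libraries, and the adjusted p of each gene follows by junction type.

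Among claudins it was 0.0191 for Cldn1, 0.000162 for Cldn2, 0.0148 for Cldn10, 3.4e-10 for Cldn11, 8.78e-05 for Cldn12, 5.92e-06 for Cldn15 and 0.0106 for Cldn23. Cldn23 was at 0.135 without XX E11.5 replicate 1, and by limma on log2(TPM + 1) Cldn10 was at 0.387 and Cldn23 at 0.0799. Among the other tight junction genes it was 0.0019 for Ocln, 9.58e-05 for Marveld2, 6.44e-07 for Tjp1, 0.000632 for Tjp3, 0.0072 for Cgn, 1.15e-08 for F11r, 5.97e-09 for Jam2 and 0.00305 for Jam3.

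Among cadherins and nectins it was 4.58e-05 for Cdh2, 3.33e-08 for Cdh3, 6.03e-06 for Cdh5, 8.66e-07 for Cdh6, 7.53e-07 for Cdh11, 0.000137 for Cdh16, 2.7e-08 for Nectin1, 9.81e-07 for Nectin2 and 3.3e-05 for Nectin3. Among connexins it was 1.05e-10 for Gja1, 1.59e-05 for Gjb2 and 0.0201 for Gjc1, the last at 0.0627 without XX E15.5 replicate 3. Among desmosome genes it was 3.7e-09 for Dsp, 0.0143 for Dsg2, 4.55e-05 for Dsc2, 9.46e-05 for Pkp2 and 4.4e-10 for Jup, and Dsg2 was at 0.153 by limma on log2(TPM + 1). Epcam, at 0.782 with all libraries, was at 1.12e-05 without XX E11.5 replicate 1.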

How the results depend on the processing

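Counts of called genes among the 42 were within 1.5 times of the reported value except as follows. At E11.5 the XX minus XY count of 15 was 26 without XX E11.5 replicate 1 and 8 with a minimum log2 change of 1. At E12.5 it was 14 (27) with at least 10 counts in every library. The first XX step (24) fell to 15 with at least 10 counts, 12, 13 and 12 by limma on log2(TPM + 1), on log2(TPM + 0.1) and over all genes above 0, 14 without XX E11.5 replicate 1, 14 with a minimum log2 change of 1, and 0 by edgeR with only the 6 libraries compared (16 at an unadjusted p under 0.05, and 23 by DESeq2 on all libraries). The second XX step (9) was 17 by limma with either pseudocount, 16 with only the libraries compared and 3 with the minimum change. The last XX step (8) was 19 with only the libraries compared, 2 with the minimum change, and, leaving out 1 library, 4 (XX E13.5 replicate 1 or XX E15.5 replicate 3) and 5 (XX E13.5 replicate 2). In XY the first step (30) was 18 with at least 10 counts, the second (7) was 16 with only the libraries compared and 1 with the minimum change, and the last (12) was 21 and 4 under these settings. With only the libraries compared, 1024, 6448 and 5656 of all 16190 genes were called for the XX steps. For the second and last XY steps 4160 and 6207 of all genes were. Any change in XY (37) was 24 with at least 10 counts. Without E11.5, any change was 19 in XX and 21 in XY, and the interaction 17.

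Leaving out 1 library gave 12 to 26, 23 to 25, 25 to 28 and 24 to 27 for XX minus XY by stage, 14 to 29, 7 to 10 and 4 to 8 for the XX steps, 25 to 28, 5 to 7 and 8 to 10 for the XY steps, 33 to 36 and 36 to 37 for any change in XX and XY, and 31 to 36 for the interaction. For single genes, 7 XX minus XY differences at E11.5 changed sign when XX E11.5 replicate 1 was left out, and these are the low and high values over the libraries left out: Cldn3 -2.06 to 1.24, Cldn4 -2.45 to 1.99, Cldn7 -3.13 to 1.16, Ocln -0.83 to 1.45, Tjp3 -0.81 to 0.67, Cdh1 -3.47 to 1.03 and Epcam -1.28 to 1.28. The first XX step changed sign for Ocln (-2.13 to 0.15) and Epcam (-2.07 to 0.49). The cause was not tested.

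The minimum log2 change of 1 was not among the alternatives in the counts that follow. Calls that held under every other alternative that tested them were 10 of 15, 20 of 27, 25 of 28 and 23 of 26 for XX minus XY. They were 0 of 24, 7 of 9 and 4 of 8 for the XX steps and 21 of 30, 5 of 7 and 7 of 12 for the XY steps. For any change they were 21 of 36 and 33 of 37, and for the interaction 28 of 32. DESeq2 size factors moved the median of all genes by at most 0.057 (log2), and limma on TPM by up to 0.207 at E12.5 and by -0.213 in the first XY step. The labels do not say whether replicate numbers pair the libraries. Same-numbered XX and XY libraries correlated at -0.0428 to 0.298, with 2 of 12 pairs over 0.1. At E11.5 these pairs were at 0.11, 0.0871 and 0.298, and differently numbered pairs were at -0.27 to 0.138. With the replicate number as a block the counts were 16, 26, 28 and 28 for XX minus XY, 22, 10 and 9 for the XX steps, 31, 8 and 13 for the XY steps, 36 and 37 for any change and 32 for the interaction.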

Other observations

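Further partners of the junctions, named by the same rule for the accompanying lists, differed between the sexes at E15.5. Ctnna3, an alpha catenin known from heart, was at 0.660 ± 0.293 TPM in XX and 12.6 ± 0.0850 in XY (-4.17 ± 0.30, adjusted p = 1.22e-10). Cxadr, the adhesion molecule known as the coxsackievirus and adenovirus receptor, was at 5.41 ± 1.05 and 33.2 ± 2.36 TPM (-2.66 ± 0.21, adjusted p = 5.20e-10), and Amotl2, a junction-bound scaffold of the Hippo pathway, at 12.4 ± 2.59 and 109 ± 6.66 (-3.58 ± 0.37, adjusted p = 4.07e-08). Panx1, which forms channels across a single membrane, was at 28.1 ± 4.18 and 68.5 ± 5.07 TPM (-1.23 ± 0.10, adjusted p = 6.37e-10). Higher in XX was Magi2, a scaffold, at 23.9 ± 4.75 TPM against 4.45 ± 1.10 (3.44 ± 0.25, adjusted p = 8.38e-11), and Clmp, a tight junction adhesion molecule, at 2.03 ± 0.265 against 0.357 ± 0.0551 (2.81 ± 0.44, adjusted p = 8.76e-06). All adjusted p-values are from edgeR's quasi-likelihood test over 3 libraries a group.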
